A study of Homo sapiens with 4 samples.

Results

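The 33 genes described here encode the proteins that bring glucose into the cell, break it down to pyruvate, make and export lactate, and run the pentose phosphate pathway. They were chosen by name from those functions, with earlier results of these data known, and all 33 were found among the 56809 gene names of the count table. Poly(A) RNA had been sequenced from NCI-H929, a human cell line established from multiple myeloma, made to express the guide-directed nuclease Cas9. In the BCL7A KO libraries (n = 2) the cells carried a doxycycline-inducible construct that knocks out BCL7A, a subunit of BAF chromatin remodelling complexes. In the control libraries (n = 2) they carried a control construct per the protocol, although the sample titles name them wild type. Both groups had puromycin selection for 3 days and then doxycycline at 0.5 ug/ml for 24 h before RNA was isolated. Neither clones nor separate cultures are named in the labels, so each p-value reflects the spread among the 4 libraries alone, and that spread may be technical.

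Glycolysis turns glucose into pyruvate with a small yield of ATP, and lactate dehydrogenase then reduces pyruvate to lactate, which leaves the cell through proton-linked transporters. The pentose phosphate pathway branches off after the first step and supplies ribose for nucleotides and NADPH for reduction. Many steps can be run by several isozymes encoded by separate genes, and proliferating tumour cells usually rely on a particular member of each set (HK2, PKM, LDHA). Antibody-secreting plasma cells, from which myeloma arises, also use much glucose for the glycosylation of antibodies.

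Total counts were 38671744 and 40799624 in the KO libraries against 17567202 and 20153596 in control libraries, so that the KO group was the deeper one. BCL7A mRNA was 1.31 and 1.19 CPM (counts per 1000000 counts of the library, scaled with TMM factors) in the KO libraries, against 42.9 and 45.7 CPM in the control libraries. All 8 plasma cell markers examined passed the test upward in the KO libraries, where they summed to 11632 to 11648 CPM, against 6566 to 6617 CPM in the control libraries. Of all tested genes 36.4% rose, and 74.6% of those averaging 100 CPM or more, as each of the 8 markers did. Mature B cell markers summed to 3.30 to 3.76 CPM in the KO and to 433 to 440 CPM in the control libraries. Of these, 5 of 6 were lower in the KO libraries, where 39.8% of all tested genes fell. The t(4;14) target genes of this line, NSD2 and FGFR3, were detected in both groups (summed 1399 to 1423 CPM in KO and 1081 to 1108 CPM in control libraries). T cell, myeloid and epithelial markers summed to at most 14.1, 3.82 and 12.6 CPM in the KO libraries and to at most 25.5, 5.02 and 70.9 CPM in the control libraries. Of the 4 T cell markers, CD3E and CD247 fell, and CD3E made up most of the sum (14.01 and 13.7 CPM in KO, 24.4 and 23.4 CPM in control libraries) while CD3D was at 0 counts in every library. Of the 4 epithelial markers, EPCAM (no counts in KO libraries, against 51.4 and 54.4 CPM in control libraries) and KRT8 fell, KRT18 rose (6.27 and 6.71 CPM in KO, 2.69 and 1.17 CPM in control libraries) and CDH1 did not pass. The part of these differences in the results below was not tested, and in such bulk samples fewer cells of a type cannot be told apart from less RNA per cell.

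KO libraries were compared with control libraries to see what knocking out BCL7A does to gene expression. The glycolysis genes HK2, GPI, PFKP, ALDOA, TPI1, GAPDH, PGK1, PGAM1, ENO1 and PKM and the lactate gene LDHA were higher in the KO libraries. The glucose transporter genes SLC2A1 and SLC2A3, FBP1, PFKFB2, PFKFB3, PFKFB4 and the isozymes HK1, ENO2 and ENO3 were lower there. Of the 33 genes, 19 rose and 11 fell at an adjusted p under 0.05 (edgeR's quasi-likelihood test, Benjamini-Hochberg over all 17885 tested genes), and all 33 passed the filter on low counts. Over all tested genes 36.4% rose and 39.8% fell, so 76.2% passed in all, and passing the test alone says little about a gene here. At least 2-fold changes were fewer, with 8 of the 33 rising (9.47% of all genes) and 6 falling (23.5% of all genes). The groups did not overlap in 32 of the 33 genes, as in 87.4% of all tested genes. The median log2 fold change, KO over control, was 0.23 over the 33 genes and -0.06 over all tested genes. It was 0.10 with upper-quartile factors, which lowered the median of all genes by a shift of -0.13, and 0.37 without control replicate 2.

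Taken as a share of all counts, the 33 genes held 0.916% and 0.904% in the KO libraries and 0.545% and 0.557% in the control libraries, with 95% Wilson intervals of at most 0.919% and at least 0.901% in KO and of at most 0.560% and at least 0.541% in control libraries. These intervals cover counting error only. Upper glycolysis genes summed to 2051 and 2047 CPM in KO, against 1108 and 1132 CPM in control libraries. The lower glycolysis genes summed to 5370 and 5288 CPM in KO libraries and 2442 and 2508 CPM in control libraries. Lactate genes summed to 2084 and 2074 CPM in KO, against 901 and 903 CPM in control libraries, and pentose phosphate genes to 529 and 523 CPM in KO, against 378 and 385 CPM in control libraries. The other sums were lower in KO libraries, with glucose uptake at 9.996 and 10.96 CPM, against 26.3 and 27.6 CPM in control libraries, and control of fructose bisphosphate at 41.2 CPM in both KO libraries, against 97.1 and 99.99 CPM in control libraries. The plot of all 33 genes by library shows how close the replicates lay in comparison with the distance between the groups.

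**Figure D1:**
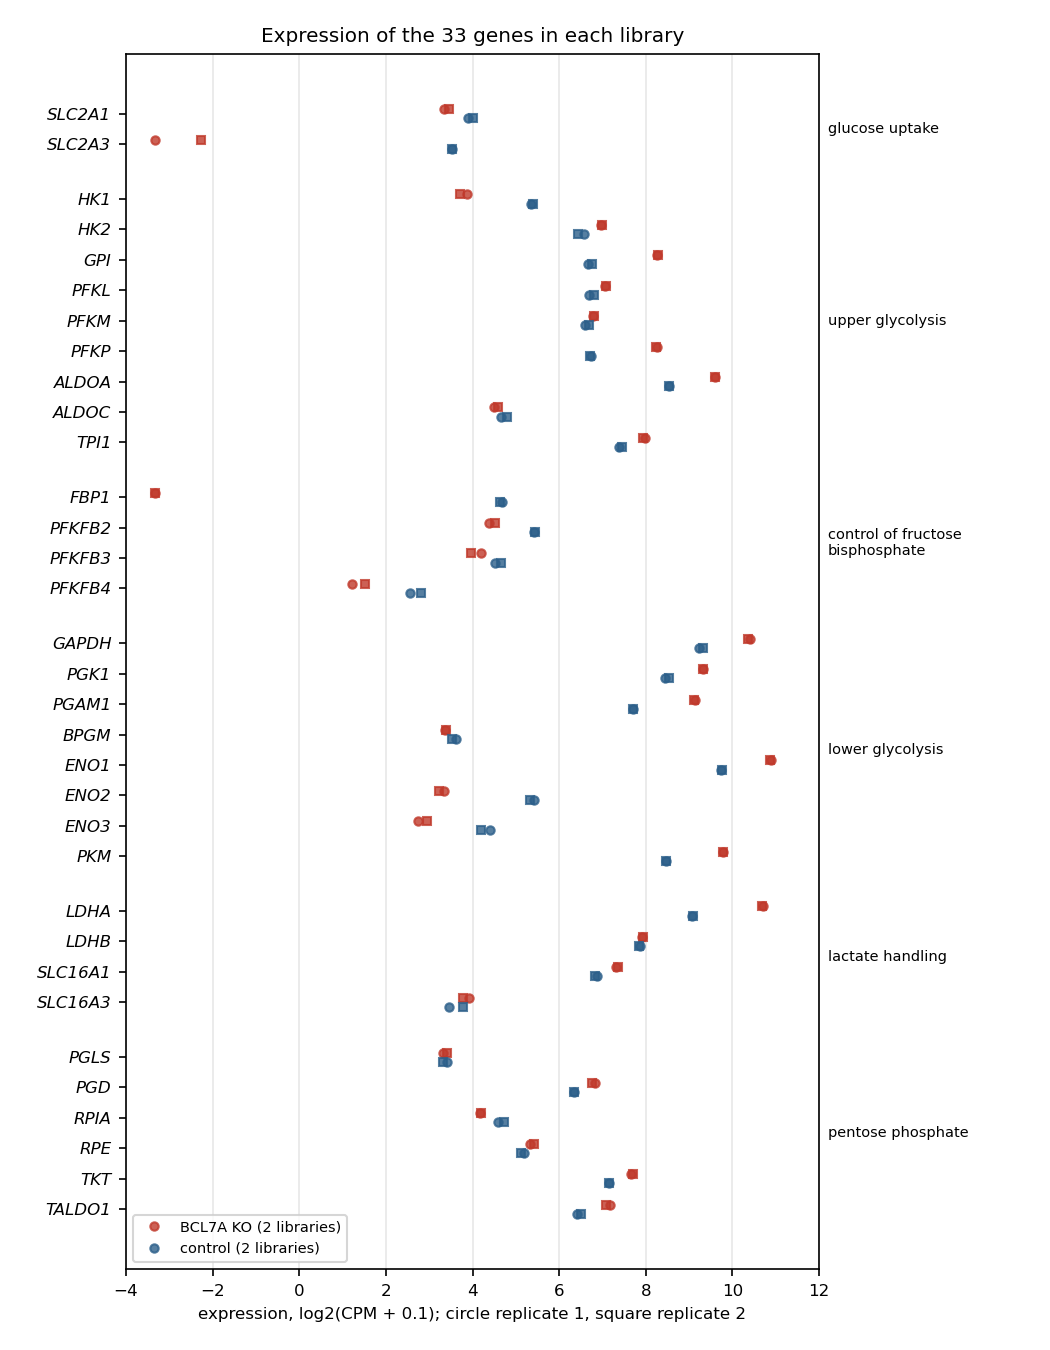
Expression of the 33 genes in each library, as log2(CPM + 0.1), grouped by pathway step; red marks are the 2 BCL7A KO libraries and blue marks the 2 control libraries, with circles for replicate 1 and squares for replicate 2. The abundant enzymes (ENO1, LDHA, GAPDH, PKM, ALDOA) lie to the right in KO libraries, and SLC2A3 and FBP1 lie at or near 0 CPM there.

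Both glucose transporter genes were lower in the KO libraries, where 39.8% of all tested genes fell. SLC2A1 encodes GLUT1, the widely expressed carrier, and had 10.0 and 10.9 CPM in KO libraries, against 14.9 and 16.1 CPM in control libraries (adjusted p = 9.32e-06 by edgeR, log2 fold change -0.57, SE 0.10). SLC2A3 encodes GLUT3, a high-affinity carrier best known from neurons. It had 0 and 4 counts in KO libraries, which is 0 and 0.108 CPM, against 11.5 and 11.4 CPM in control libraries. The ratio of control to KO was 207, with an exact 95% Clopper-Pearson counting interval of 80.1 to 761, and the fitted log2 fold change was -7.58 (SE 0.33, adjusted p = 1.54e-17 by edgeR). Because the KO group rests on 4 counts from a single library, the ratio was 106 (interval 41.1 to 390) without KO replicate 1, and without KO replicate 2 SLC2A3 was at least 134-fold lower in the KO group, by a floor of 3 counts over the group. Per kilobase of transcript, SLC2A1 made up 99.5 ± 0.655% of the pair in KO libraries and 59.0 ± 1.48% in control libraries (SD, n = 2 each).

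Hexokinases trap glucose by phosphorylating it, and their genes moved apart. HK2, the inducible isozyme of many tumours, had 126 and 127 CPM in KO libraries, against 95.0 and 86.3 CPM in control libraries (log2 fold change 0.48, SE 0.04). HK1, the constitutive isozyme, had 14.6 and 13.1 CPM in KO libraries, against 41.0 and 42.1 CPM in control libraries (log2 fold change -1.59, SE 0.07). Replicates of both genes lay close together and the groups did not overlap. HK2 held 85.1 ± 1.01% of hexokinase expression per kilobase in KO libraries and 57.7 ± 2.11% in control libraries.

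GPI, which converts glucose phosphate to fructose phosphate, changed nearly as much as any of the 33 genes in the upward direction. It had 308 and 312 CPM in KO libraries and 102 and 109 CPM in control libraries (adjusted p = 2.60e-25 by edgeR, log2 fold change 1.56, SE 0.03). Phosphofructokinase, which commits sugar to glycolysis, is built from PFKL (liver), PFKM (muscle) and PFKP (platelet) subunits, named for the tissues where they are prominent. PFKP had 305 and 303 CPM in KO libraries, against 107 and 105 CPM in control libraries (log2 fold change 1.52, SE 0.03). PFKL (133 and 135 CPM in KO, 103 and 112 CPM in control libraries; log2 fold change 0.32, SE 0.04) and PFKM (110 and 111 CPM in KO, 97.3 and 103 CPM in control libraries; log2 fold change 0.14, SE 0.04) changed little. The call on PFKM was lost with upper-quartile factors (adjusted p = 0.933) and with KO libraries thinned to control depth (adjusted p = 0.101). In control libraries the subunits were nearly level per kilobase, with PFKP at 37.0 ± 1.43%, PFKL at 34.2 ± 1.06% and PFKM at 28.8 ± 0.362% of their sum. By contrast PFKP reached 58.7 ± 0.355% in KO libraries.

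Aldolase and triosephosphate isomerase complete the splitting of the sugar. ALDOA had 780 and 777 CPM in KO libraries and 372 CPM in both control libraries (log2 fold change 1.07, SE 0.02). A longer gene model on the same strand, AC093512.2, overlaps ALDOA and held 5678 and 5841 counts in KO and 1483 and 1785 counts in control libraries, so the counts of the pair cannot be fully separated. ALDOC, the brain-type isozyme, had 22.3 and 24.0 CPM in KO and 25.1 and 27.5 CPM in control libraries (adjusted p = 0.0200 by edgeR, log2 fold change -0.18, SE 0.07). That call did not hold without a filter (adjusted p = 0.252), with DESeq2 (adjusted p = 0.165), without KO replicate 1 (adjusted p = 0.266) or without control replicate 2 (adjusted p = 0.161). TPI1, the isomerase, had 252 and 246 CPM in KO and 167 and 175 CPM in control libraries (log2 fold change 0.54, SE 0.03).

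**Figure D2:**
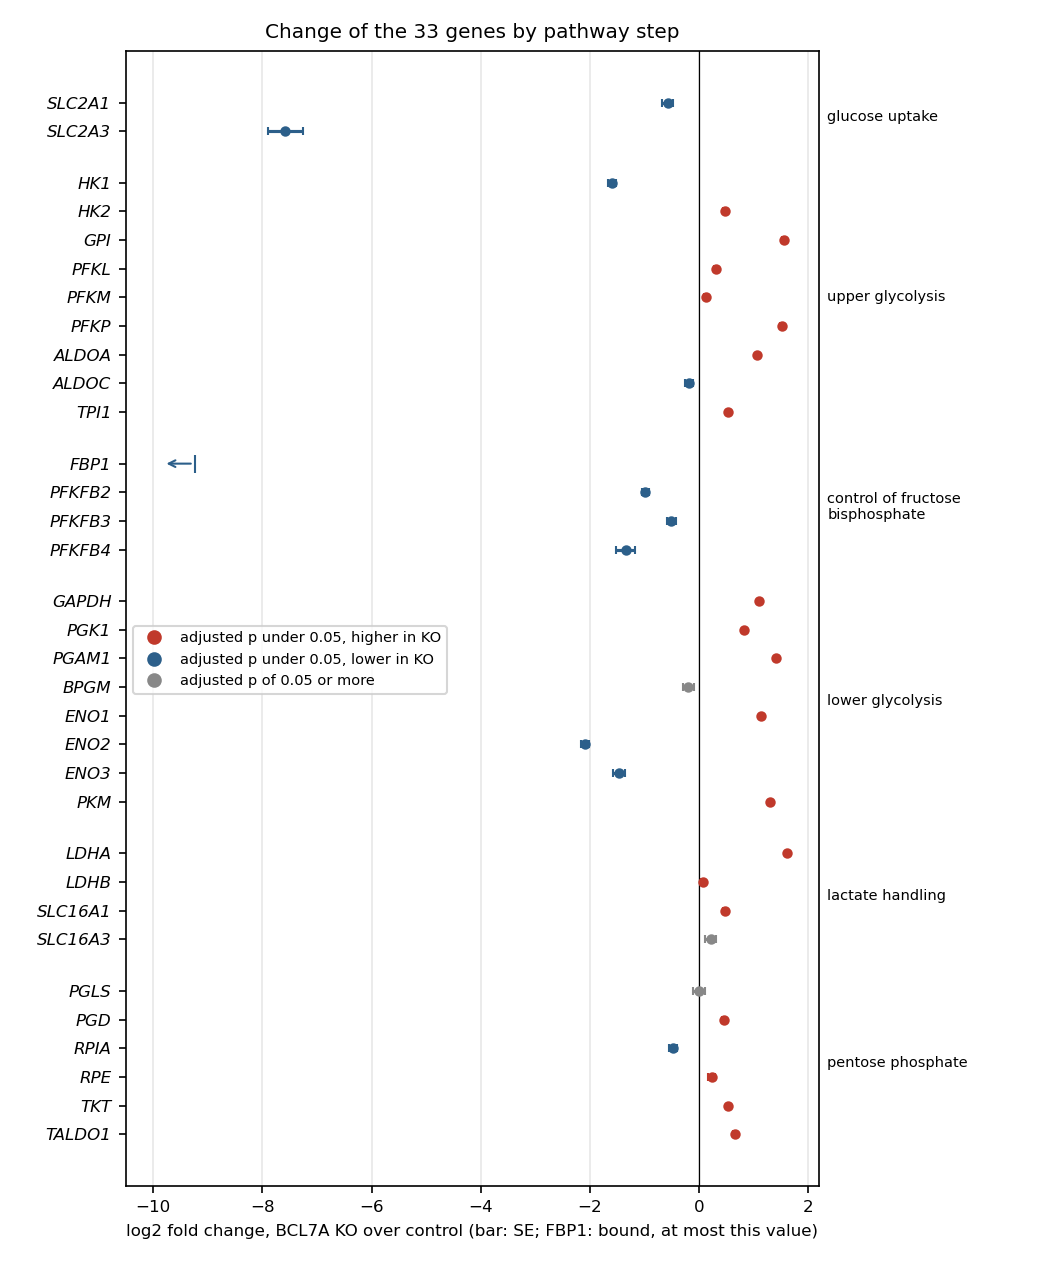
Log2 fold change of the 33 genes, BCL7A KO over control, by pathway step; points are edgeR estimates with their SE, and colour shows the call. FBP1 had 0 counts in KO libraries and is drawn as a bound with an arrow. The PFKFB genes, FBP1 and both glucose transporters lie left of 0, and most enzymes of the main path lie right of 0.

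All 4 of the 33 genes grouped under control of fructose bisphosphate were lower in the KO libraries, where 39.8% of all tested genes fell. These 4 averaged 4.40 to 32.5 CPM over the 4 libraries. Of all genes under 20 CPM 48.2% fell, and of those with 20 to 100 CPM 32.2%. Related genes of the wider list described below, named after their values were seen, did not follow. TIGAR was higher, with 29.4 and 32.3 CPM in KO and 20.3 and 19.2 CPM in control libraries (log2 fold change 0.65, SE 0.07). PFKFB1 did not pass the test (adjusted p = 0.790 by edgeR). FBP1, the gluconeogenic phosphatase that reverses the phosphofructokinase step and that several tumour types silence, had 0 counts in both KO libraries and 493 and 549 counts in the control libraries (25.5 and 24.7 CPM). It was at least 603-fold lower in the KO group, by a floor of 3 counts over the group (0.0416 CPM). The bound was at least 309-fold lower without KO replicate 1 and at least 294-fold lower without KO replicate 2. No other gene of the 33 was at 0 counts in both libraries of a group.

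The PFKFB enzymes make and remove a fructose bisphosphate that activates phosphofructokinase. PFKFB2, the heart-type enzyme, had 20.6 and 22.9 CPM in KO libraries, against 42.9 and 43.3 CPM in control libraries (log2 fold change -0.99, SE 0.06). PFKFB3, the form with the strongest kinase activity, had 18.4 and 15.5 CPM in KO and 22.9 and 25.0 CPM in control libraries (log2 fold change -0.50, SE 0.08). PFKFB4 was less expressed than PFKFB2 and PFKFB3, with 2.22 and 2.76 CPM in KO and 5.74 and 6.89 CPM in control libraries (log2 fold change -1.34, SE 0.18). YOD1, on the opposite strand, overlaps PFKFB2 and went the other way in counts (2098 and 2211 in KO, 852 and 899 in control libraries). These counts are not scaled to depth, and the KO libraries were deeper, so they overstate the difference in level. Library sizes scaled with TMM factors were 35115504 and 36947149 in KO and 19326070 and 22193298 in control libraries. The strand setting of the counting is not given in the sources used here.

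Lower glycolysis holds ENO1 and GAPDH, which with LDHA had the highest mean CPM of the 33 genes, and also the weakly expressed ENO2, ENO3 and BPGM. GAPDH, which oxidises glyceraldehyde phosphate and is often used as a reference gene, had 1359 and 1317 CPM in KO libraries, against 603 and 638 CPM in control libraries (log2 fold change 1.11, SE 0.03). PGK1, the first ATP-yielding enzyme, had 645 and 636 CPM in KO and 349 and 370 CPM in control libraries (log2 fold change 0.83, SE 0.03). PGAM1, a phosphoglycerate mutase, had 566 and 555 CPM in KO libraries and 209 CPM in both control libraries (log2 fold change 1.42, SE 0.03). PKM, the pyruvate kinase gene whose splice forms are not separated in a gene count, had 881 and 879 CPM in KO libraries and 355 CPM in both control libraries (log2 fold change 1.31, SE 0.02). In each of these genes the KO libraries lay well above both control libraries.

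The enolase genes split by isozyme. ENO1, the ubiquitous form, had 1892 and 1872 CPM in KO libraries, against 851 and 866 CPM in control libraries (log2 fold change 1.13, SE 0.02). ENO2, the neuronal form, had 10.1 and 9.28 CPM in KO libraries, against 42.4 and 40.3 CPM in control libraries, 4.27-fold lower in KO (adjusted p = 3.97e-20 by edgeR, log2 fold change -2.09, SE 0.07). ENO3, the muscle form, had 6.64 and 7.66 CPM in KO and 21.2 and 18.3 CPM in control libraries (log2 fold change -1.46, SE 0.11). ENO3 overlaps the abundant gene PFN1 on the opposite strand. PFN1 was higher in KO libraries (18521 and 19468 counts, against 4911 and 5716 counts in control libraries). These counts are not scaled to depth and overstate that difference, since the KO libraries were deeper. ENO2 and ENO3 together were already minor in control libraries, at 3.71 ± 0.159% and 3.30 ± 0.362% of enolase expression per kilobase. In KO libraries these shares were 0.422 ± 0.0217% and 0.580 ± 0.0627%. BPGM, which makes the bisphosphoglycerate that tunes haemoglobin in red cells, had 10.1 and 10.4 CPM in KO and 12.1 and 11.5 CPM in control libraries and did not pass the test (adjusted p = 0.0939 by edgeR).

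LDHA had the highest log2 fold change of the 33 genes. LDHA encodes the M subunit of lactate dehydrogenase, favoured where pyruvate is turned to lactate, and had 1667 and 1653 CPM in KO libraries, against 541 and 544 CPM in control libraries, 3.06-fold higher (adjusted p = 3.95e-29 by edgeR, log2 fold change 1.61, SE 0.02). LDHB, which encodes the H subunit of oxidative tissues, had 242 and 244 CPM in KO and 232 and 231 CPM in control libraries (adjusted p = 0.0280 by edgeR, log2 fold change 0.07, SE 0.03). The direction of LDHB turned with upper-quartile factors (log2 fold change -0.06, adjusted p = 0.0449). Its call was lost with DESeq2 (adjusted p = 0.105), with the stricter filter (adjusted p = 0.702), with thinned KO libraries (adjusted p = 0.280), and without KO replicate 1, KO replicate 2 or control replicate 2 (adjusted p = 0.0752, 0.134 and 0.121). LDHA made up 81.3 ± 0.171% of the pair per kilobase in KO and 59.8 ± 0.211% in control libraries. Of the lactate carriers, SLC16A1, which encodes MCT1, had 160 and 163 CPM in KO and 117 and 114 CPM in control libraries (log2 fold change 0.48, SE 0.03). SLC16A3, which encodes MCT4, an exporter of highly glycolytic cells, had 14.9 and 13.6 CPM in KO and 10.9 and 13.6 CPM in control libraries and did not pass the test (adjusted p = 0.0696 by edgeR). It passed when no filter was used (adjusted p = 0.00653) and without control replicate 2 (log2 fold change 0.37, adjusted p = 0.00544).

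In the pentose phosphate pathway 4 of 6 genes rose and 1 fell, where 36.4% and 39.8% of all tested genes did, and no gene changed 2-fold. PGD, which releases NADPH in the oxidative branch, had 114 and 109 CPM in KO libraries, against 80.5 and 80.7 CPM in control libraries (log2 fold change 0.47, SE 0.04). TKT and TALDO1, the transketolase and transaldolase that link the pathway back to glycolysis, had log2 fold changes of 0.54 (SE 0.03) and 0.65 (SE 0.04). TKT had 204 and 207 CPM in KO and 141 and 142 CPM in control libraries, and TALDO1 had 143 and 135 CPM in KO and 85.7 and 91.2 CPM in control libraries. The epimerase gene RPE had 40.0 and 43.0 CPM in KO and 36.3 and 34.5 CPM in control libraries (log2 fold change 0.23, SE 0.06), a call lost with upper-quartile factors (adjusted p = 0.125). RPIA, the isomerase that makes ribose phosphate, was lower in KO libraries, at 17.9 and 18.3 CPM, against 23.8 and 26.6 CPM in control libraries (log2 fold change -0.48, SE 0.08). PGLS, the lactonase of the oxidative branch, was the only gene of the 33 whose groups overlapped, with 9.85 and 10.6 CPM in KO and 10.6 and 9.91 CPM in control libraries (adjusted p = 0.999 by edgeR).

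In addition 11 isozyme pairs were compared as log2 ratios within each library, after 0.5 CPM was added to each gene, which bears on the ratios of low genes. ENO2 against ENO1 was -7.53 ± 0.0694 in KO and -4.36 ± 0.0693 in control libraries, a difference of -3.17. LDHB against LDHA was -2.77 ± 0.0162 in KO and -1.23 ± 0.0126 in control libraries, a difference of -1.54, and HK2 against HK1 differed by 2.03. PFKP against PFKL differed by 1.19, ALDOC against ALDOA by -1.24 and ENO3 against ENO1 by -2.54. SLC2A1 against SLC2A3 differed by 3.89, a value that depends on the added 0.5 CPM because SLC2A3 had 0 and 0.108 CPM in KO libraries. In these 7 pairs the difference between groups exceeded the SD within groups many times over. The exact two-sided permutation test over 4 libraries gave p = 0.333 for each of the 11 pairs, the smallest p that 2 against 2 allows. Smaller differences were found for SLC16A3 against SLC16A1 (-0.26), PFKM against PFKL (-0.18), PFKFB4 against PFKFB3 (-0.70) and PFKFB2 against PFKFB3 (-0.48).

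**Figure D3:**
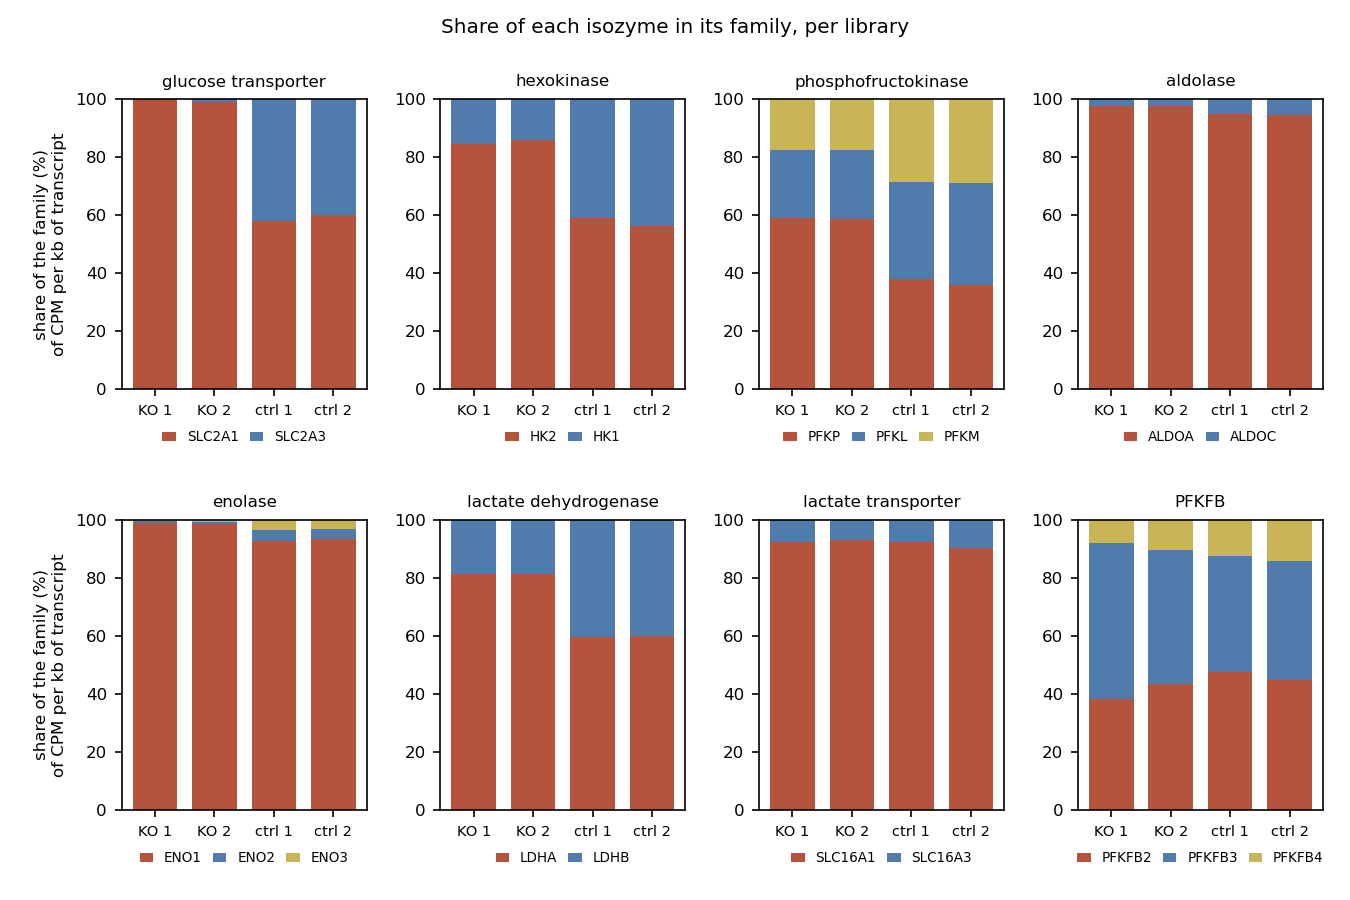
Share of each isozyme within its family in each library, in percent of the family's CPM per kilobase of transcript; each stacked bar is 1 library, with the BCL7A KO libraries left of the control libraries. LDHA, HK2, PFKP and SLC2A1 fill more of the KO bars (81.3%, 85.1%, 58.7% and 99.5% on average) than of the control bars.

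The direction of change went with the mean level over the 4 libraries, among the 33 genes and among genes at large. Classes of mean expression were set after the values were seen. This mean includes the KO values, so part of the pattern follows from the sorting. HK2 and TALDO1 averaged 90.7 and 88.4 CPM in control libraries and reached the top class through 126 and 139 CPM in KO libraries. FBP1 averaged 25.1 CPM in control libraries and came under 20 CPM through its 0 in KO libraries. All 17 genes averaging 100 CPM or more rose, as did 74.6% of all genes at that level. The median log2 fold change was 0.83 over the 17 genes and 0.44 over all genes of the class. Among the 17, LDHB turned to -0.06 with upper-quartile factors. The calls on LDHB and PFKM were also lost in other settings, as given above. Of the 8 genes with 20 to 100 CPM, 2 rose and 6 fell (53.2% and 32.2% of all genes). The 8 genes under 20 CPM had 0 that rose and 5 that fell (19.5% and 48.2% of all genes, edgeR; 0 also rose at an unadjusted p under 0.05 and with DESeq2). SLC16A3, of this class, rose when no filter was used (adjusted p = 0.00653), without control replicate 2 (adjusted p = 0.00544) and with a crossed replicate block (adjusted p = 0.0499), an alternative chosen after seeing the data.

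**Figure D4:**
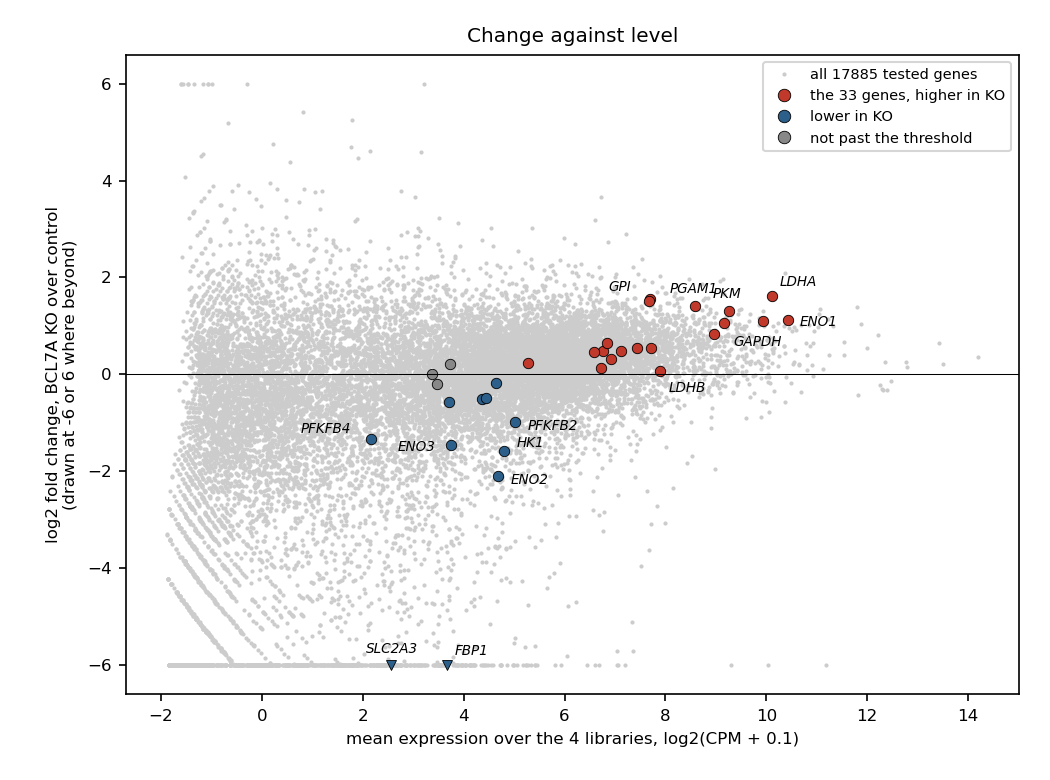
Log2 fold change, BCL7A KO over control, against mean expression, log2(CPM + 0.1), for all 17885 tested genes (grey) and the 33 genes (coloured by call, with values beyond -6 drawn at -6 as triangles). The 17 most abundant of the 33 lie above 0, and those that fell lie below a mean of 100 CPM.

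Per kilobase of transcript, ENO1 and GAPDH held ranks 1 and 2 of the 33 in both groups, at 803 and 714 CPM per kb in KO and 366 and 331 CPM per kb in control libraries. LDHA followed in KO libraries (687 CPM per kb), ahead of ALDOA (486) and PKM (324). In control libraries ALDOA (232 CPM per kb) stood just ahead of LDHA (224), and LDHB (151) came next. LDHB ranked 8 in KO libraries, behind PGAM1 (306 CPM per kb) and TPI1 (202). These ranks rest on 1 reference transcript per gene, since the transcripts counted are not known, so close neighbours such as ALDOA and LDHA cannot be ordered firmly.

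Promoters are shown for LDHA, with the highest log2 fold change, ENO1, with the highest level, PGK1, a classical hypoxia-induced gene, and FBP1, without counts in KO libraries. The sequences are from RefSeq (GRCh38.p14), from 250 bases before to 50 bases after the gene start, printed 5′ to 3′ on the gene's strand, at chr11:18394313-18394612 (plus strand), chr1:8878637-8878936 (minus strand), chrX:78103998-78104297 (plus strand) and chr9:94639469-94639768 (minus strand). Capitals mark ACGTG on either strand, one form of the core bound by hypoxia-inducible factors, of which GCGTG, left in lower case, is the other; CACGTG, the E-box bound by MYC and related factors, contains it.
LDHA: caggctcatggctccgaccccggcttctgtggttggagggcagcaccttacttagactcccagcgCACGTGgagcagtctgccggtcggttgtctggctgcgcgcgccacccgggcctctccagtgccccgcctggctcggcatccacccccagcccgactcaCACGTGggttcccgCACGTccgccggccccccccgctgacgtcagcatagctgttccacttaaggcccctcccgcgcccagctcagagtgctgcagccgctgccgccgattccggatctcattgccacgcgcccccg
ENO1: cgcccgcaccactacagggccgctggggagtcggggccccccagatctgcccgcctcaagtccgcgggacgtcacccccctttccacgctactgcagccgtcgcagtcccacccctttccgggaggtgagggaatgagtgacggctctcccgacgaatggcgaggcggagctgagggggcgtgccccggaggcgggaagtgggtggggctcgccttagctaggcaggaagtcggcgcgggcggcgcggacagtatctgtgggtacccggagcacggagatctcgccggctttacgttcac
PGK1: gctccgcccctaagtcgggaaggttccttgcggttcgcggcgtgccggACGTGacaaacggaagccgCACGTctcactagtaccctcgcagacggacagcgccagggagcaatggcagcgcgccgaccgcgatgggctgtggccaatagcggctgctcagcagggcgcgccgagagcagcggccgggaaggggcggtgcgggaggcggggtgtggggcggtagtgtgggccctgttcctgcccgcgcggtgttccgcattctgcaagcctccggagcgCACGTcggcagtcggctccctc
FBP1: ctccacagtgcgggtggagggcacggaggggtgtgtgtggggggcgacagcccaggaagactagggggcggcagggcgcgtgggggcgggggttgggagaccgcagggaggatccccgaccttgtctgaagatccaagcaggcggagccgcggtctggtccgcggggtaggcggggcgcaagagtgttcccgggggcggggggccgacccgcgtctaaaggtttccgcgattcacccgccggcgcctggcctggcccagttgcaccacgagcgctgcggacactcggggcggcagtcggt
LDHA and PGK1 each held ACGTG at 3 places, and those of LDHA included CACGTG at 2 places, whereas ENO1 and FBP1 held no ACGTG in this window. GCGTG on either strand was found once each in LDHA, PGK1 and FBP1 and at 2 positions in ENO1. Of the 30 genes with a promoter in the table, 10 held ACGTG on either strand (33.3%), as did 26.1% of 11408 tested genes with a promoter there and 21.6% of all 27305 promoters. ACGTG was found in 7 of 18 genes that rose and 2 of 9 that fell. CACGTG was found in 3 of the 30 (10.0%), and in 10.1% of the tested genes. GCGTG was found in 15 of the 30 and in 49.9% of the tested genes, with 8 of 18 among those that rose and 7 of 9 among those that fell. A match describes the letters only and is not evidence of binding.

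The 33 genes lie on 14 chromosomes, 6 of them on chromosome 12. GAPDH (chromosome 12, 6533927 to 6538374), TPI1 (6867119 to 6870948) and ENO2 (6913745 to 6923698) are near neighbours on the plus strand of GRCh38. TPI1 and ENO2 start 46.6 kb apart and moved in opposite directions, as the plot of the genes around TPI1 shows. For each of the 33 genes, the 20 nearest expressed protein-coding genes (10 on each side, fewer at a chromosome end) had a median log2 fold change between -0.67 and 0.77, against 0.20 over the 9133 genes from which neighbours were drawn. The median of the neighbours had the sign of the gene itself in 23 of 33 cases, among them PGLS with a log2 fold change of only 7.8e-05. Neighbour medians were above 0 for 21 of the 33 genes, and whether 23 exceeds the count for unrelated signs was not tested. LDHA stood 1.19 above its neighbours (median 0.43) and GPI 1.45 above its own (median 0.11), both on the log2 scale. LDHB lay among genes that were lower in KO libraries (median -0.64), and PFKP among genes that were higher (median 0.65 over 16 neighbours).

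**Figure D5:**
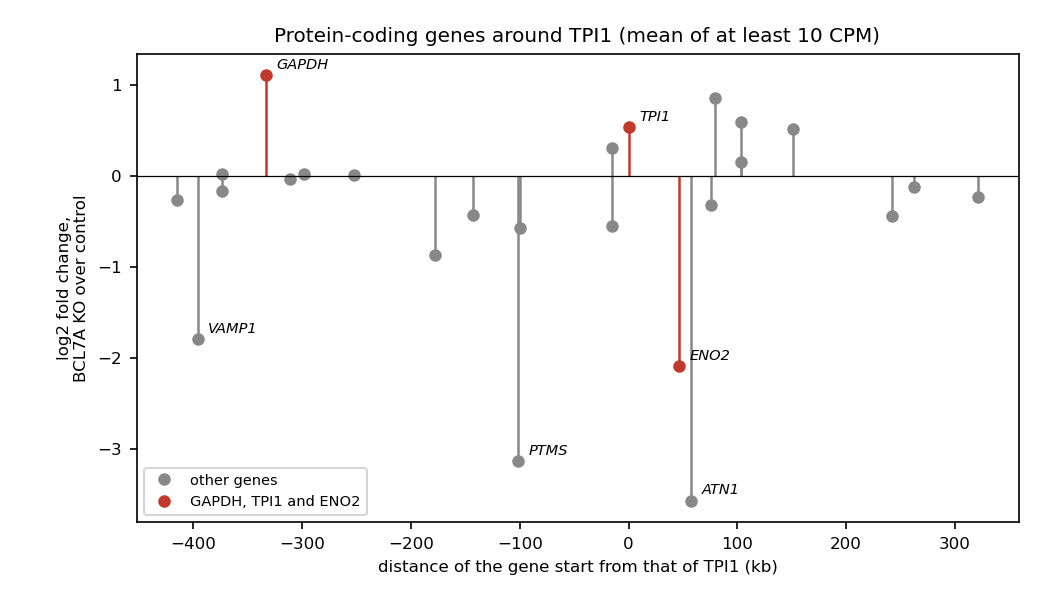
Log2 fold change, BCL7A KO over control, of protein-coding genes averaging 10 CPM or more whose starts lie within 500 kb of the start of TPI1, against that distance in kb. GAPDH and TPI1 (red) point up (1.11 and 0.54) and ENO2, 46.6 kb from TPI1, points down (-2.09).

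Reads could also be shared with other gene models, since 24 of the 33 genes overlap another gene of GENCODE release 29 on either strand. Many of the abundant enzymes have processed pseudogenes whose reads could be mixed with those of the parent. In the table, rows named as pseudogenes of GAPDH (62 rows) summed to 20 and 32 counts in KO and 31 and 28 counts in control libraries, at most 0.266% of the GAPDH counts. For SLC2A3, 3 such rows held 4 and 19 counts in KO and 21 and 0 counts in control libraries, more than SLC2A3 itself had in the KO libraries. For TPI1 the share was at most 1.99%, for PGAM1 at most 0.538%, for ENO1 at most 0.197% and for LDHA at most 0.0287%.

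Other genes of sugar metabolism, with carriers and regulators such as TXNIP and HIF1A, were 54 in number, and 39 could be tested. Of these 39, 27 rose and 6 fell, and their median log2 fold change was 0.55. Among all tested genes 36.4% rose and 39.8% fell, and the median was -0.06. The count that fell was 3 without control replicate 2. TXNIP, which restrains glucose uptake and is induced by glucose through MLXIP, had 659 and 670 CPM in KO libraries, against 183 and 182 CPM in control libraries (adjusted p = 6.64e-29 by edgeR, log2 fold change 1.87, SE 0.03). Its relative ARRDC4, induced in the same way, had 19.2 and 21.7 CPM in KO and 2.43 and 1.98 CPM in control libraries (log2 fold change 3.22, SE 0.14). SLC2A5, the fructose carrier GLUT5, had 690 and 693 CPM in KO and 230 and 233 CPM in control libraries (log2 fold change 1.58, SE 0.03). Its CPM lay above those of SLC2A1 and SLC2A3 in every library, although CPM does not allow for transcript length. GALM, the galactose mutarotase, had 309 and 312 CPM in KO and 55.7 and 62.3 CPM in control libraries (log2 fold change 2.39, SE 0.04). HIF1A, the hypoxia-inducible subunit that drives many glycolysis genes, had 193 and 190 CPM in KO and 102 and 99.4 CPM in control libraries (log2 fold change 0.93, SE 0.03). PRPS1, which turns ribose phosphate into the precursor of nucleotides, had 124 and 125 CPM in KO and 57.0 and 50.3 CPM in control libraries (log2 fold change 1.22, SE 0.04).

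Genes of this wider list that fell were mostly of low expression. TKTL1, a transketolase-like gene, had 6 counts in the KO group and 86 in the control group, a ratio of control to KO of 24.9 with an exact 95% counting interval of 10.97 to 69.7. DERA, a deoxyribose phosphate aldolase, had 3.30 and 3.41 CPM in KO and 6.36 and 7.12 CPM in control libraries (log2 fold change -1.01, SE 0.16). H6PD, the oxidative enzyme of the endoplasmic reticulum, had 53.6 and 59.0 CPM in KO and 73.9 and 67.5 CPM in control libraries (log2 fold change -0.33, SE 0.05). The carriers SLC2A6 and SLC2A13 had log2 fold changes of -0.26 (SE 0.08) and -0.34 (SE 0.14), and neither passed with DESeq2 (adjusted p = 0.0896 and 0.171), unfiltered (adjusted p = 0.0698 and 0.134), without KO replicate 2 (adjusted p = 0.115 and 0.142) or without control replicate 2 (adjusted p = 0.0925 and 0.172). Without KO replicate 1, SLC2A13 did not pass either (adjusted p = 0.0919). Of the 8 SLC2A genes in this wider list, 7 were tested, of which 3 rose, 3 fell and 1 did not pass. Of all tested genes 36.4% rose and 39.8% fell, so this split lay near that of genes at large. Besides SLC2A5, SLC2A12 (log2 fold change 1.37, SE 0.26) and SLC2A8 (log2 fold change 0.45, SE 0.14) rose, both named after their values were seen. The call on SLC2A8 was lost with DESeq2 (adjusted p = 0.0540) and without control replicate 1 (adjusted p = 0.0581).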

How the data were processed

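The deposited table held estimated counts per gene from the authors, all whole numbers; the submitters' processing notes name Salmon 0.12 and GRCh38. Neither annotation nor strand setting is stated in the labels or headers. The 92 ERCC spike-in rows (at most 5 counts in a library) were left out, and gene models came from GENCODE release 29. Genes were filtered with filterByExpr, scaled with TMM factors (0.909 and 0.906 in KO, 1.10 and 1.10 in control libraries) and compared with edgeR 4.0.16 (glmQLFit with robust=TRUE, glmQLFTest, no covariates, R 4.3.3), with Benjamini-Hochberg adjustment, called at 0.05. Fold changes put KO over control on the log2 scale; dividing the size of one by the square root of its F gave the SE. CPM per kilobase used the longest APPRIS principal transcript. Replicate pairs were not copies of the same counts, with chi-square divided by its degrees of freedom at 1.79 in KO and 2.43 in control. The counts are estimates, so these values cannot show that the libraries were prepared separately. The common spread between replicates fitted by edgeR (biological coefficient of variation) was 2.32%. Alternatives were upper-quartile factors, RLE factors, an unfiltered fit, a stricter filter (mean count of at least 10 and 1 CPM in 2 libraries), DESeq2 1.42.0, limma-voom (limma 3.58.1), a replicate block, each library left out, thinned KO libraries and a threshold of 0.01. All 33 genes are named. Of 54 further genes, at most 6 in each direction with a mean of at least 1 CPM are named by smallest p. Besides these, SLC2A8, SLC2A12, TIGAR and PFKFB1 were named after their values were seen. The fit was also run on simulated counts with known folds and independent replicates. That run cannot show how the p-values behave if the replicates here are technical. The genes, lists and pairs were chosen with earlier results of these data known.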

Additional observations from a re-analysis of the deposited data

How the results depend on the processing

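Under the alternatives, the number of the 33 genes that rose stayed between 16 and 20 and the number that fell between 10 and 13. The median log2 fold change of the 33 genes was 0.10 with upper-quartile factors, 0.32 with no filter, 0.17 with the stricter filter and 0.20 with thinned KO libraries, and 0.26 to 0.37 when a library was left out. Among the other sugar metabolism genes, the number that fell was 3 to 6 with a library left out. LDHB turned to -0.064 with upper-quartile factors. PGLS, which passed under no alternative, turned to -0.13 with upper-quartile factors, -0.058 with the stricter filter, -0.0015 with thinned KO libraries, -0.00050 with the replicate block, -0.0025 with the crossed block and lay between -0.061 and 0.062 with a library left out. Beyond the calls named above, BPGM passed with upper-quartile factors and with the stricter filter (adjusted p = 0.00654 and 0.0321). The labels do not pair the replicate numbers, and 2 pairs are too few to test it: deviations of same-numbered libraries correlated at -0.01 over all tested genes and at -0.20 over genes of at least 10 CPM. With the replicate block 18 of the 33 genes rose and 11 fell, with LDHB lost (adjusted p = 0.0564). A crossed pairing, added after the data were seen, gave 20 and 11, with SLC16A3 gained (adjusted p = 0.0499). With a library left out, the lone library of a group is assumed to vary like the other group. The group differences in isozyme log2 ratio ranged most widely for SLC16A3 against SLC16A1 (-0.43 to -0.09), PFKFB4 against PFKFB3 (-0.95 to -0.45) and PFKFB2 against PFKFB3 (-0.67 to -0.29). Depth limits the genes near 0 counts, above all SLC2A3 and FBP1.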

Other observations

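The genes next to GAPDH, TPI1 and ENO2 on chromosome 12 included others with changes as large, named after their values were seen. The log2 fold change was -3.57 for ATN1 (57.3 kb from the start of TPI1), -3.13 for PTMS (at -101.6 kb) and -1.80 for VAMP1, against 0.86 for PTPN6.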
